A study of Mus musculus with 14 samples.

Results

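Transcripts of 5 candidate transcription factors of young L1 retrotransposons (Nrf1, Creb1, Rbpj, Nr0b1 and Yy1) were followed through mouse spermatogenesis with and without DNMT3C, the methyltransferase that silences young retrotransposon promoters in the male germ line. They were chosen by name as the gene rows carrying these symbols, 5 of the 32667 genes counted in spermatogonia and 5 of the 36888 counted in spermatocytes, and were set against the transcripts of L1Md_T and L1Md_A in the same 14 libraries. Spermatogonia (Spg) were sorted from testes at postnatal day 14 as DAPI-, β2-microglobulin-negative and Ep-CAM-positive cells, and spermatocytes (Spc) were sorted by Hoechst staining from mice older than 20 days. Polyadenylated RNA was sequenced from Dnmt3CKO/KO (KO) and wild-type (WT) littermates on a C57Bl6/J background, with 3 libraries for each genotype of Spg and 4 for each genotype of Spc. The Dnmt3C deletion was constitutive, so somatic cells of the mutant testis carried it too. KO germ cells arrest at pachytene while the WT sort held later cells as well, so genotype and stage cannot be told apart in Spc.

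NRF1 binds CpG-containing sites as a dimer, activates nuclear genes of mitochondrial function and is kept from its sites by DNA methylation. CREB1 binds the cAMP response element, whose central CpG is also sensitive to methylation, and its testis-rich relative CREM drives the post-meiotic programme. RBPJ is the DNA-binding effector of Notch signalling, a repressor until the Notch intracellular domain joins it. NR0B1 (DAX1) is an X-linked orphan nuclear receptor without a DNA-binding domain of its own, best known in Sertoli and Leydig cells as a corepressor of NR5A1. YY1 is a zinc finger protein that can activate or repress and has a known site in the promoter of L1 elements. L1Md_T and L1Md_A are the youngest mouse L1 subfamilies, and their promoters are tandem repeats called monomers.

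Each library held between 40555726 and 53323651 counts on genes and transposable elements. Levels are given as CPM, the count of a feature relative to library size, after scaling all 14 libraries together with TMM, the trimmed mean normalisation of edgeR, and a feature is called at a Benjamini-Hochberg adjusted p under 0.01 in edgeR's quasi-likelihood test over all features tested. Pachytene markers (9 genes) summed to between 8855 and 16390 CPM in the WT Spc libraries and to between 247 and 518 CPM in KO Spc, and round spermatid markers (7 genes measured) to between 73.2 and 1252 CPM against 6.20 to 12.7 CPM. Spermatogonial markers (10 genes) summed to 951 to 1958 CPM in WT Spc and 484 to 1301 CPM in KO Spc with 6 called higher and 2 lower, early meiotic markers (9 genes) to 1950 to 3204 CPM and 1602 to 2608 CPM with 3 higher and 2 lower, and erythroid markers (4 genes) stayed under 10 CPM in every library. Replicates 1 and 4 of Spc were much more alike than any other pair within their genotype, though they differed by more than the sampling noise and were kept as separate libraries. Dnmt3c transcripts were not lower in the KO. In Spg the groups overlapped, at 1.40 ± 0.52 CPM in KO and 1.27 ± 0.29 CPM in WT (SD, n = 3 each). In Spc they were at 1.07 ± 0.08 CPM in KO and 0.63 ± 0.28 CPM in WT (SD, n = 4 each). Every KO Spc library was above every WT Spc library, and the test was not passed (edgeR adjusted p = 0.124). Nothing in the labels says which libraries came from separate animals, so the p-values measure the spread between these libraries, which may in part be technical. The study's captions count fewer biological replicates of Spc than there are libraries, so values of the candidates and of L1 are also given after adding Spc replicates 1 and 4 where that changed a call.

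In Spg, where L1Md_T had already risen 18-fold on group means, none of the 5 candidates passed the test between KO and WT, which does not show that they were equal. In Spc, where 57.4% of all features were called, the KO libraries held more Creb1 and Rbpj than WT, and both calls depended on single libraries. The transcripts also moved between stages. From WT Spg to WT Spc the transcripts of Nrf1, Creb1 and Rbpj fell, to 58.6%, 51.8% and 30.2% of the Spg mean, while in the KO they stood at 73.0%, 88.0% and 75.3% of it and no candidate was called.

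L1Md_T was at 180.7, 213.0 and 213.3 CPM in WT Spg and at 5009, 3950 and 1988 CPM in KO Spg, in replicate order here and below. In Spc it was at 254.8, 211.9, 466.8 and 251.1 CPM in WT and at 17760, 7100, 15020 and 20070 CPM in KO. All KO libraries stood above all WT libraries, and every KO Spc library stood above every KO Spg library. The log2 fold change of KO over WT was 4.13 ± 0.33 in Spg (SE, edgeR adjusted p = 0.00352) and 5.69 ± 0.45 in Spc (adjusted p = 7.19e-06). L1Md_A showed log2 fold changes of 3.44 ± 0.26 in Spg (SE, edgeR adjusted p = 0.00278) and 5.88 ± 0.50 in Spc (adjusted p = 1.05e-05). The Spg call of L1Md_T was lost in 4 of 6 fits without 1 library and that of L1Md_A in 2 of 6, with adjusted p up to 0.0209 and fold changes of at least 3.24 in log2.

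Nrf1 lies at chr6:30047988-30153458 on the plus strand (GRCm38). Its level was 58.2, 57.0 and 74.9 CPM in WT Spg and 66.1, 70.2 and 70.0 CPM in KO Spg, and these groups overlapped. In Spc it was 28.0, 51.0, 40.3 and 29.2 CPM in WT and 43.8, 53.4, 59.8 and 43.6 CPM in KO. WT replicate 2 stood above 2 of the 4 KO libraries, so the Spc groups overlapped as well. The log2 fold change of KO over WT was 0.09 ± 0.14 in Spg (SE, edgeR adjusted p = 1.00) and 0.47 ± 0.24 in Spc (adjusted p = 0.106). With library totals the Spc value was 1.14 and passed (adjusted p = 0.00924), the median of all genes moving from 0.11 to 0.79. Nfe2l1, an unrelated leucine zipper factor that is also called NRF1, rose by 1.39 ± 0.22 on the log2 scale in KO Spc (SE, edgeR adjusted p = 0.000357).

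Creb1 lies at chr1:64532645-64604548 on the plus strand. It was at 61.5, 50.9 and 71.9 CPM in WT Spg and at 65.4, 65.1 and 54.3 CPM in KO Spg. The Spc levels were 26.4, 32.7, 39.5 and 28.6 CPM in WT and 58.1, 43.5, 56.1 and 59.3 CPM in KO. The Spg groups overlapped, and every KO Spc library was above every WT Spc library. The log2 fold change was -0.03 ± 0.15 in Spg (SE, edgeR adjusted p = 1.00) and 0.80 ± 0.21 in Spc (adjusted p = 0.00692). The Spc call of Creb1 remained in 2 of the 8 fits without 1 library, those without KO replicate 2 or WT replicate 3. It was lost without any of the other libraries (adjusted p from 0.019 to 0.0324). Adding replicates 1 and 4 of each genotype into 1 library gave 0.70 with an adjusted p of 0.0679.

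Crem, the testis-rich relative, moved the other way. It was at 256.6, 164.8, 162.3 and 253.1 CPM in WT Spc and at 19.0, 13.9, 19.3 and 21.1 CPM in KO Spc, without overlap, and it fell by 3.50 ± 0.27 in log2 (SE, edgeR adjusted p = 6.33e-06). In WT cells Crem rose by 3.38 ± 0.39 from Spg to Spc (SE, edgeR adjusted p = 1.4e-05). Atf1, the third member of the family, had a log2 fold change of -0.29 ± 0.20 in Spc (SE, edgeR adjusted p = 0.218). The pachytene and spermatid markers fell beside Crem in the same KO libraries, and their part in its value was not tested.

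Rbpj lies at chr5:53466152-53657362 on the plus strand. Of the 5 candidates it had the widest spread among WT Spc libraries. In Spg it was at 134.6, 116.8 and 163.4 CPM in WT and at 139.3, 143.5 and 138.9 CPM in KO. In Spc it was at 20.4, 54.4, 69.4 and 22.9 CPM in WT and at 103.9, 99.1, 109.8 and 110.8 CPM in KO. The KO Spc libraries kept within 1.12-fold of each other while the WT Spc libraries differed by up to 3.40-fold, and no WT Spc library reached the KO range. The log2 fold change was -0.01 ± 0.13 in Spg (SE, edgeR adjusted p = 1.00) and 1.38 ± 0.36 in Spc (adjusted p = 0.00645). Only 1 of the 8 fits without a single Spc library kept the call, that without WT replicate 3, the others giving adjusted p from 0.0108 to 0.0188. Adding replicates 1 and 4 gave 1.17 with an adjusted p of 0.0291. A processed copy, Rbpj-ps3, was counted apart at group means of 0.21 to 1.16 CPM, and how reads shared with it were divided is not known.

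Nr0b1 lies at chrX:86191764-86195947 on the plus strand, and was the least abundant candidate in CPM. In Spg it was at 26.1, 13.0 and 6.68 CPM in WT and at 36.6, 15.3 and 12.8 CPM in KO. In Spc it was at 4.32, 3.65, 7.74 and 2.57 CPM in WT and at 20.1, 8.83, 6.63 and 21.0 CPM in KO. Replicate 1 was highest in both genotypes of Spg, KO was above WT in each of the 3 same-numbered pairs of Spg, and WT replicate 3 of Spc exceeded KO replicate 3. The log2 fold change was 0.45 ± 0.55 in Spg (SE, edgeR adjusted p = 1.00) and 1.66 ± 0.49 in Spc (adjusted p = 0.0121), so neither passed the test. With the replicate number as a block the Spg value was 0.51 ± 0.19 (SE, edgeR adjusted p = 0.408), which did not pass either. Leaving out KO replicate 1 turned it to -0.14, and leaving out WT replicate 1 raised it to 1.06. Without KO replicate 3 or without WT replicate 3 the Spc value passed, at 1.89 and 2.03 (adjusted p = 0.00633 and 0.00521), and DESeq2 called it (1.61, adjusted p = 0.00184).

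These levels moved with Sertoli cell markers. The summed level of 8 such markers (Sox9, Amh, Wt1, Gata4, Rhox5, Cldn11, Fshr and Dhh) was 370.6, 175.3 and 97.2 CPM in WT Spg, and 453.8, 175.7 and 141.5 CPM in KO Spg. In Spc it was 38.9, 40, 114.9 and 35.0 CPM in WT and 315.1, 112.2, 74.5 and 282.8 CPM in KO, and no marker of the list was at 0 in any group. Over the 14 libraries Nr0b1 spanned 14.2-fold and the Sertoli list 13.0-fold, but Nr0b1 per 100 CPM of the Sertoli list stayed between 6.36 and 11.1. By this ratio, chosen after the values were seen, KO Spc (6.36 to 8.91) and WT Spc (6.73 to 11.1) overlapped, and KO Spg (8.06 to 9.01) stood above WT Spg (6.87 to 7.43). In such sorted samples fewer cells of a type and less RNA per cell cannot be told apart.

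**Figure D1:**
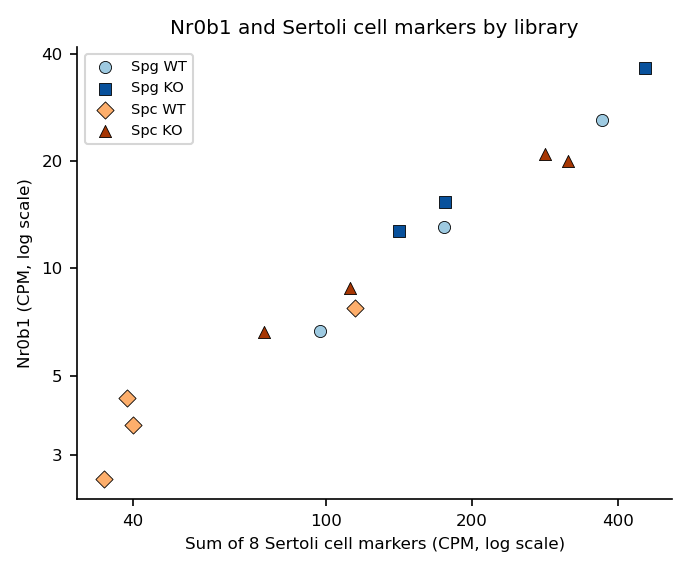
Nr0b1 (vertical axis, CPM) against the sum of 8 Sertoli cell markers (horizontal axis, CPM), both on log scales, with 1 point for each of the 14 libraries and a symbol for each group. The points lie along 1 band from WT Spc (Nr0b1 at 2.57 to 7.74 CPM) to replicate 1 of KO Spg (36.6 CPM), and the ratio of both stays between 6.36 and 11.1 per 100.

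Yy1 lies at chr12:108792973-108820148 on the plus strand and was the one candidate with a lower mean in KO than in WT Spc. It was at 96.2, 100.4 and 104.9 CPM in WT Spg and at 88.1, 103.2 and 82.9 CPM in KO Spg. Its Spc levels were 133.4, 171.3, 134.0 and 131.1 CPM in WT and 110.4, 81.9, 100.9 and 126.2 CPM in KO. Every KO Spc library was below every WT Spc library, yet the test was not passed. The log2 fold change was -0.17 ± 0.12 in Spg (SE, edgeR adjusted p = 1.00) and -0.42 ± 0.19 in Spc (adjusted p = 0.0723). Scaling by library totals turned the Spc value to 0.26, because it moved the median of all genes from 0.11 to 0.79. Relative to that median Yy1 was at -0.52 with TMM and at -0.53 with library totals.

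The relatives of Yy1 split. Yy2, a retrotransposed copy of Yy1 within the gene Mbtps2 on the X chromosome, was at 0.59, 0.75, 2.83 and 0.63 CPM in WT Spc and at 9.82, 8.56, 12.3 and 11 CPM in KO Spc, a rise of 3.15 ± 0.56 in log2 (SE, edgeR adjusted p = 0.000723). Zfp42 (REX1), the other relative, fell by 2.21 ± 0.27 (SE, edgeR adjusted p = 7.77e-05), from 51.4 ± 7.9 CPM in WT to 11 ± 2.5 CPM in KO (SD, n = 4 each). Yy2 and Mbtps2 overlap on the same strand and Yy2 resembles Yy1 in its coding part, so the division of reads between them is uncertain. Nr0b1 and Yy2 are both X-linked. The X chromosome is transcriptionally silenced in pachytene cells of males, and its part in these values was not tested.

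**Figure D2:**
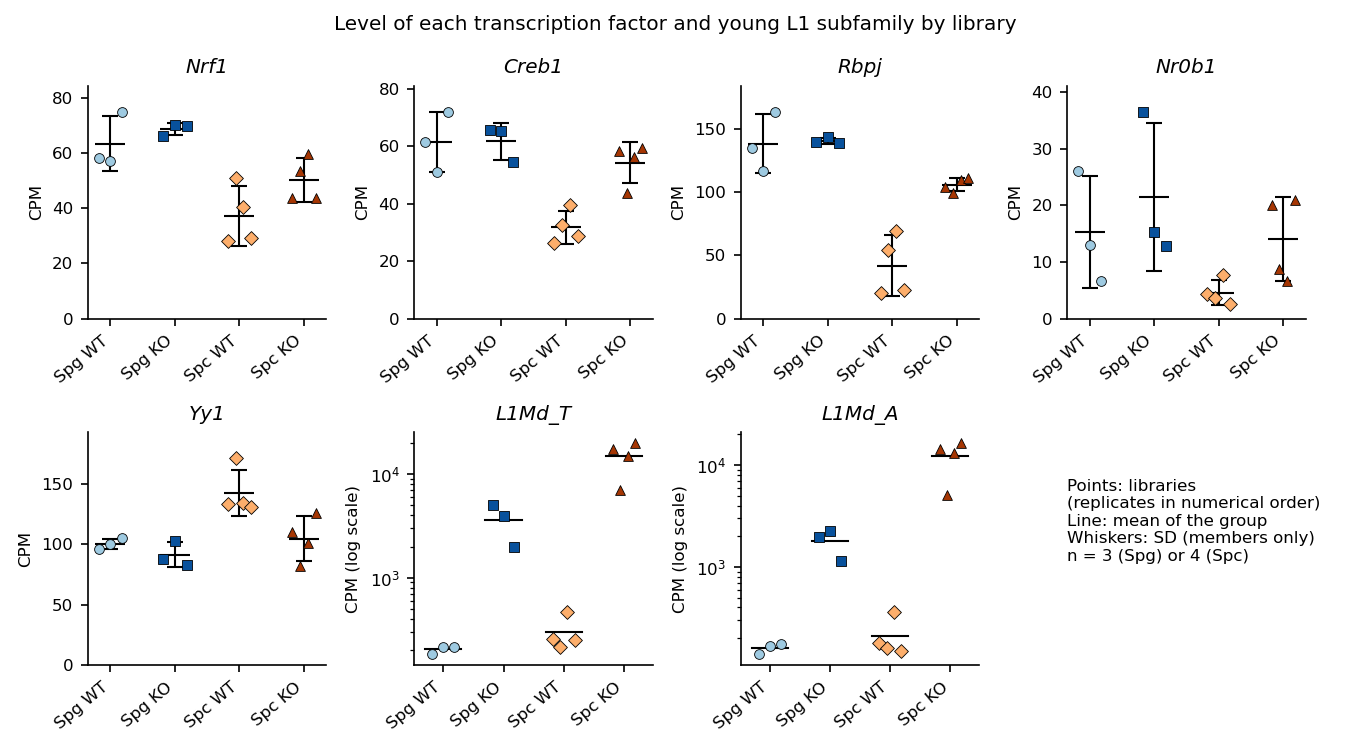
Level in CPM of the 5 candidates (linear axes from 0) and of L1Md_T and L1Md_A (log axes) in each library, grouped by stage and genotype, with the mean as a line and the SD as whiskers for the candidates (n = 3 for Spg, n = 4 for Spc). The Spg groups overlap for all 5 candidates, and Rbpj lies at 99.1 to 110.8 CPM in KO Spc against 20.4 to 69.4 CPM in WT Spc.

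Read together, 0 of 5 candidates were called between KO and WT Spg by edgeR, and 0 by DESeq2 or at an unadjusted p under 0.05. The share of all features called there was 0.0741%, or 16 features, with 119 called when the replicate number was a block and 613 by DESeq2. The Spg groups did not overlap for 11.9% of all features and overlapped for all 5 candidates. In Spc 2 of 5 were called, both higher, against 57.4% of all features called in either direction and 27.4% called higher. The groups of libraries were apart for 3 of 5 candidates (Creb1 and Rbpj higher, Yy1 lower) and for 67.5% of all features. The count of candidates ran from 0 to 3 over the fits without 1 library, so no order between these shares is read from 5 genes. The median log2 fold change was 0.80 for the 5 candidates and 0.11 for all features.

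Whether the KO effect differed between Spc and Spg was asked with an interaction term in 1 model of the 14 libraries. It was called for none of the 5 candidates by edgeR or DESeq2, and for 24.9% of all features. Rbpj came to 1.32 ± 0.48 in log2 (SE, edgeR adjusted p = 0.0388) and Creb1 to 0.77 ± 0.29 (adjusted p = 0.0434). Without WT Spc replicate 3 the value for Rbpj was 1.66 with an adjusted p of 0.00429 and passed. L1Md_A was called, with its KO effect larger in Spc by 2.38 ± 0.54 (SE, edgeR adjusted p = 0.0038), and L1Md_T was not, at 1.49 ± 0.51 (adjusted p = 0.03). L1Md_T passed in 2 of the 14 fits without 1 library. The call of L1Md_A was lost without KO Spg replicate 3 (2.24, adjusted p = 0.0106) and after adding Spc replicates 1 and 4 (2.11, adjusted p = 0.0159).

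Between the stages in WT, 3 of 5 candidates were called, and each fell. The share of all features called was 51.4%, with 22.5% called lower. The directions depend on the scaling: with TMM 5701 features were called lower and 7325 higher, and with library totals 8813 and 4631. Rbpj fell by 1.73 ± 0.34 in log2 (SE, edgeR adjusted p = 0.000565), Creb1 by 0.95 ± 0.20 (adjusted p = 0.000989) and Nrf1 by 0.77 ± 0.23 (adjusted p = 0.00852). Creb1 and Rbpj kept this call in each of the 14 fits without 1 library, and Nrf1 in 11. The call of Nrf1 was lost without WT Spg replicate 3 (-0.79, adjusted p = 0.0139) and without WT Spc replicate 1 or 4 (-0.65 and -0.66, adjusted p = 0.0286 and 0.0282), and after adding Spc replicates 1 and 4 (-0.62, adjusted p = 0.0322). Nr0b1 came to -1.74 ± 0.56 (SE, edgeR adjusted p = 0.0142) and Yy1 to 0.50 ± 0.18 (adjusted p = 0.024), and with library totals Yy1 turned to -0.31. The groups were apart for 4 of 5 candidates, Yy1 being the one that was higher in Spc, and for 65.2% of all features. L1Md_T and L1Md_A did not pass the test between WT stages, at 0.55 ± 0.37 and 0.41 ± 0.38 (SE, edgeR adjusted p = 0.2 and 0.36), and with library totals they turned to -0.20 and -0.33.

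Between the stages in KO, none of the 5 candidates was called, where 2.99% of all features were. The log2 differences ran from -0.61 ± 0.55 for Nr0b1 to 0.20 ± 0.18 for Yy1 (SE, edgeR adjusted p = 0.519 and 0.516). All KO Spc libraries were nevertheless below all KO Spg libraries for Nrf1 and Rbpj, and groups were apart for 26.2% of all features. L1Md_T rose by 2.04 ± 0.39 over the same step (SE, edgeR adjusted p = 0.00532) and L1Md_A by 2.78 ± 0.42 (adjusted p = 0.00122). The call of L1Md_T was lost in 5 of 14 fits without 1 library (any KO Spg library, or KO Spc replicate 1 or 4) and that of L1Md_A in 2 (KO Spg replicate 1 or 3). L1Md_T lost it also with library totals (1.93, adjusted p = 0.0123) and after adding Spc replicates 1 and 4 (1.92, adjusted p = 0.0217). These comparisons share libraries with those above and are not independent of them.

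**Figure D3:**
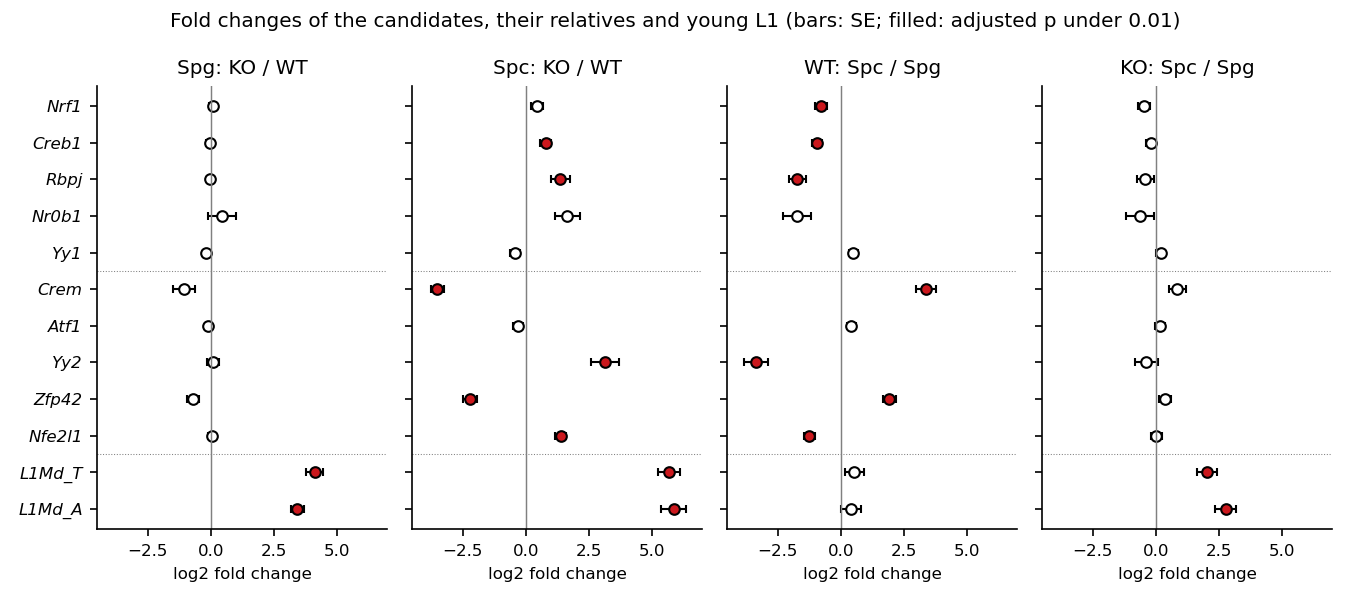
Log2 fold change (horizontal axis) of the 5 candidates, their relatives and young L1 in 4 comparisons, with bars for the SE and filled points for an edgeR adjusted p under 0.01. In KO over WT Spg only L1Md_T (4.13) and L1Md_A (3.44) are filled, whereas in Spc the filled candidates are Creb1 (0.80) and Rbpj (1.38).

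Within a group, some candidates shared an order of the libraries and others did not. In WT Spg Nrf1, Creb1 and Rbpj were highest in replicate 3 and lowest in replicate 2, while L1Md_T was highest in replicate 3 and lowest in replicate 1. In KO Spc L1Md_T was highest in replicate 4, followed by replicates 1, 3 and 2, spanning 2.83-fold. Creb1 and Yy1 had the same order there, Rbpj and Nr0b1 shared its highest library, and Nrf1 was lowest in that library. Replicates 4 and 1 of KO Spc also had the higher Sertoli sums (282.8 and 315.1 CPM against 112.2 and 74.5 CPM in replicates 2 and 3) and Leydig sums (290 and 356 CPM against 57.3 and 64.9 CPM), and the lower spermatogonial sums (484 and 492 CPM against 1301 and 1187 CPM). The pachytene sums had the same order as L1Md_T, at 518.2, 458.6, 422.2 and 247.1 CPM in replicates 4, 1, 3 and 2. The part of these marker sums in this order was not tested. In KO Spg L1Md_T was highest in replicate 1 and lowest in replicate 3 (2.52-fold), as were Creb1 (1.2-fold) and Nr0b1 (2.87-fold), while Nrf1 was lowest in replicate 1. L1Md_A differed there, being highest in replicate 2 and lowest in replicate 3, as were Rbpj and Yy1. In WT Spc replicate 3 held the most L1Md_T (466.8 CPM), and also the most Creb1, Rbpj, Nr0b1 and Yy2 of its group. That library also had the lowest pachytene sum (8855 CPM), the highest round spermatid sum (1252 CPM) and the highest Sertoli sum (114.9 CPM) among WT Spc. With 3 or 4 libraries a group and 4 separate groups, no correlation was computed.

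**Figure D4:**
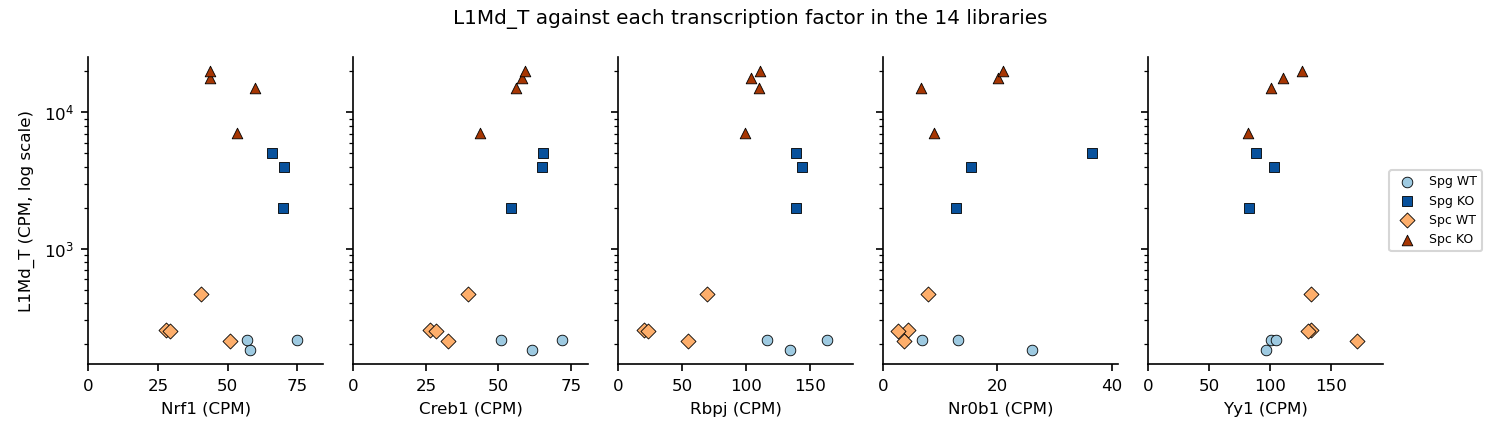
L1Md_T (vertical axis, CPM, log scale) against each candidate (horizontal axis, CPM) with 1 point for each of the 14 libraries. KO Spg and WT Spg lie above one another at like levels of Nrf1, Creb1 and Rbpj, while L1Md_T spans 180.7 to 5009 CPM over these 6 libraries.

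Compared per length, as CPM per kilobase of the exons annotated for each gene, Yy1 had the highest mean of the 5 candidates in each group. In WT Spg the levels per kilobase were 15.7 ± 0.7 for Yy1, 10.9 ± 1.8 for Rbpj, 8.44 ± 5.47 for Nr0b1, 6.16 ± 0.97 for Nrf1 and 4.47 ± 0.76 for Creb1 (SD, n = 3). The spread of Nr0b1 covered both of its neighbours in that order. In WT Spc Yy1 was at 22.2 ± 3.0 per kilobase, and the other 4 lay close together between 2.31 ± 0.42 (Creb1) and 3.61 ± 1.05 (Nrf1) (SD, n = 4). In KO Spc Rbpj was at 8.31 ± 0.43 per kilobase, Nrf1 at 4.88 ± 0.77 and Creb1 at 3.95 ± 0.53 (SD, n = 4). The order depends on the length used: with the longest annotated transcript Rbpj stood above Yy1 in WT Spg (25.2 against 16.3 per kilobase), KO Spg (25.6 against 14.8) and KO Spc (19.3 against 17.0), and Nrf1 (17.0) stood above it in KO Spg as well.

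By the correlation of log2 CPM over the 14 libraries, among 11848 protein-coding genes, the patterns most like Nrf1 were those of Txlna (r = 0.990), Nln (0.986) and Rsl1d1 (0.981). For Creb1 they were Slc25a36 (r = 0.991), Sp3 (0.988) and Crebbp (0.985), the last encoding the coactivator that CREB1 recruits. Rbpj was most like Fam168b (r = 0.995), Zxdc (0.993) and Tet3 (0.992), a methylcytosine dioxygenase. Nr0b1 was most like Wfdc10 (r = 0.992), Gstm6 (0.992) and Aard (0.991), and Yy1 most like Sun1 (r = 0.971), 4930402H24Rik (0.967) and Vkorc1l1 (0.958). These values describe libraries that fall into 4 groups, and shared stage differences enter every one of them.

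Genes known to work with each candidate, or to be regulated by it, were counted in the same fits. In KO against WT Spg none of the 71 genes tested in the 5 lists was called, and the list medians lay between -0.08 and 0.18 on the log2 scale against 0.02 for all features. In the lists around NRF1, CREB1, RBPJ, NR0B1 and YY1 the gene with the smallest p of its list was Tfam, Crem, Maml2, Star and Zfp42, in that order. Their log2 fold changes were 0.31 ± 0.18, -1.04 ± 0.44, -0.87 ± 0.47, 0.48 ± 0.26 and -0.70 ± 0.24 (SE, edgeR adjusted p from 0.424 to 0.919). For Crem and Zfp42 the pachytene markers moved beside them, since their sum was 491.8, 1538 and 282 CPM in WT Spg and 180.4 to 193.6 CPM in KO Spg. Their part in these values was not tested.

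In KO against WT Spc the NRF1 list (coactivators and nuclear genes of mitochondrial function) had 3 of 17 genes called higher and 7 lower, with a median of -0.41 on the log2 scale against 0.11 for all features. Scaling by library totals shifts every value of this comparison with the median of all genes, so the lists are to be read against that median. In this comparison 57.4% of all features were called and 27.4% were called higher. Gabpa (NRF2 subunit alpha), Cycs (somatic cytochrome c) and Pprc1 (a PGC-1 family coactivator) rose, by 1.77 ± 0.23, 2.19 ± 0.35 and 2.17 ± 0.53 (SE, edgeR adjusted p = 0.000131, 0.000411 and 0.00439). The respiratory chain genes Ndufs1, Sdhd and Cox4i1 fell, by 0.92 ± 0.16, 0.86 ± 0.17 and 1.40 ± 0.28 (SE, edgeR adjusted p = 0.000739, 0.00126 and 0.0014). From WT Spg to WT Spc 8 of these 17 rose and 3 fell, where 51.4% of all features were called. Tfb1m rose by 1.21 ± 0.21 and Dynll1 by 0.85 ± 0.15 (SE, edgeR adjusted p = 0.000224 and 0.000325). Of those that fell, Pprc1 (log2 -3.03 ± 0.49) and Cycs (-1.97 ± 0.35) had the smallest p (SE, edgeR adjusted p = 0.000137 and 0.00025).

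Of the 12 genes of the CREB list, 5 were called higher and 3 lower in KO Spc, with a median of 0.68, where 57.4% of all features were called and 27.4% higher. The coactivator genes Crebbp (1.25 ± 0.21) and Crtc3 (2.25 ± 0.47) rose, as did Prkacb (2.89 ± 0.47), a catalytic subunit of protein kinase A (SE, edgeR adjusted p = 0.000591, 0.00177 and 0.00044). Crem fell, as did Fhl5 (log2 -8.14 ± 0.95), the testis coactivator of CREM, and Prkaca (-1.19 ± 0.26), the other catalytic subunit (SE, edgeR adjusted p = 6.67e-05 and 0.00249 for the latter 2). Between the WT stages 7 of 11 genes fell, where 51.4% of all features were called and 22.5% lower, including Crebbp by 1.58 ± 0.21 and Prkacb by 2.74 ± 0.43 (SE, edgeR adjusted p = 3.73e-05 and 0.000111). The 3 that rose were Crem, Prkaca (0.94 ± 0.23, SE, edgeR adjusted p = 0.00263) and Prkar1a.

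The Notch list had 10 of 20 genes called higher and 2 lower in KO Spc, against 57.4% of all features called and 27.4% higher, with a median of 1.93. The receptors Notch2 (2.24 ± 0.33) and Notch3 (3.43 ± 0.53) and the coactivator Maml1 (1.61 ± 0.24) rose (SE, edgeR adjusted p = 0.000248, 0.000317 and 0.000291). The ligand gene Dll3 fell by 2.93 ± 0.37 and Snw1, a coactivator of the RBPJ complex and splicing factor, by 1.02 ± 0.22 (SE, edgeR adjusted p = 0.000109 and 0.00243). In the WT stage comparison 12 of 20 fell, against 51.4% of all features called and 22.5% lower, with the smallest p for Maml1 (log2 -1.84 ± 0.22) and Notch2 (-2.46 ± 0.31), and Snw1 and Dll3 rose by 1.16 ± 0.20 and 1.60 ± 0.34 (SE, edgeR adjusted p from 1.95e-05 to 0.00099). Notch receptors are also expressed by somatic cells of the testis, and peritubular markers (4 genes) summed to 16.9 to 167.7 CPM in KO Spc against 3.55 to 10.3 CPM in WT Spc. Macrophage markers (4 genes) summed to 17.2 to 83.4 CPM against 2.16 to 4.22 CPM, and their part in the Notch values was not tested. Rbpjl, the RBPJ paralogue, was too low to be tested.

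The NR0B1 list had 5 of 9 genes called higher in KO Spc and none lower, with a median of 2.53. The shares of all features were 57.4% called and 27.4% called higher. Among them were Cyp11a1 (2.97 ± 0.59) and Star (3.23 ± 0.65), with Cyp17a1 and Nr5a1 (SE, edgeR adjusted p = 0.00133 and 0.00144 for the first 2). Star, Cyp11a1 and Cyp17a1 encode steps of steroid synthesis and stand on the Leydig marker list too, where all 6 genes were called higher and the sum was 57.3 to 356.2 CPM in KO Spc against 14.1 to 30.4 CPM in WT Spc. Between the WT stages, where 51.4% of all features were called, Cyp17a1 and Cyp11a1 rose (4.29 ± 1.13 and 3.36 ± 0.97), and the pluripotency-related factors Nr5a2 and Pou5f1 fell (log2 -3.56 ± 0.70 and -3.04 ± 0.74; SE, edgeR adjusted p from 0.00059 to 0.0073). Nr0b2 (SHP), the nearest relative of Nr0b1, had group means of 0.06 to 0.16 CPM.

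The YY1 list had 3 of 14 genes called higher and 7 lower in KO Spc, beside 57.4% of all features called and 27.4% higher, with a median of -0.74. Yy2, Yaf2 (1.2 ± 0.27) and Hdac2 (0.88 ± 0.24) rose (SE, edgeR adjusted p = 0.00303 and 0.00837 for the last 2). Ruvbl2, a helicase subunit of the INO80 complex, fell by 2.99 ± 0.22, and Sfmbt1, a partner of YY1 in a Polycomb-like repressor complex, by 2.05 ± 0.25 (SE, edgeR adjusted p = 5.18e-06 and 7.73e-05). In the WT stage comparison 7 rose and 3 fell, beside 51.4% of all features called, with Ruvbl2 at 2.50 ± 0.23, Zfp42 at 1.93 ± 0.26, Yy2 at -3.36 ± 0.49 and Hdac2 at -1.20 ± 0.23 (SE, edgeR adjusted p from 7.8e-06 to 0.000466). Between the KO stages, where 2.99% of all features were called, 3 genes of the 5 lists were, namely Maml2, Cyp11a1 and Cyp17a1, a share near that of all features.

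**Figure D5:**
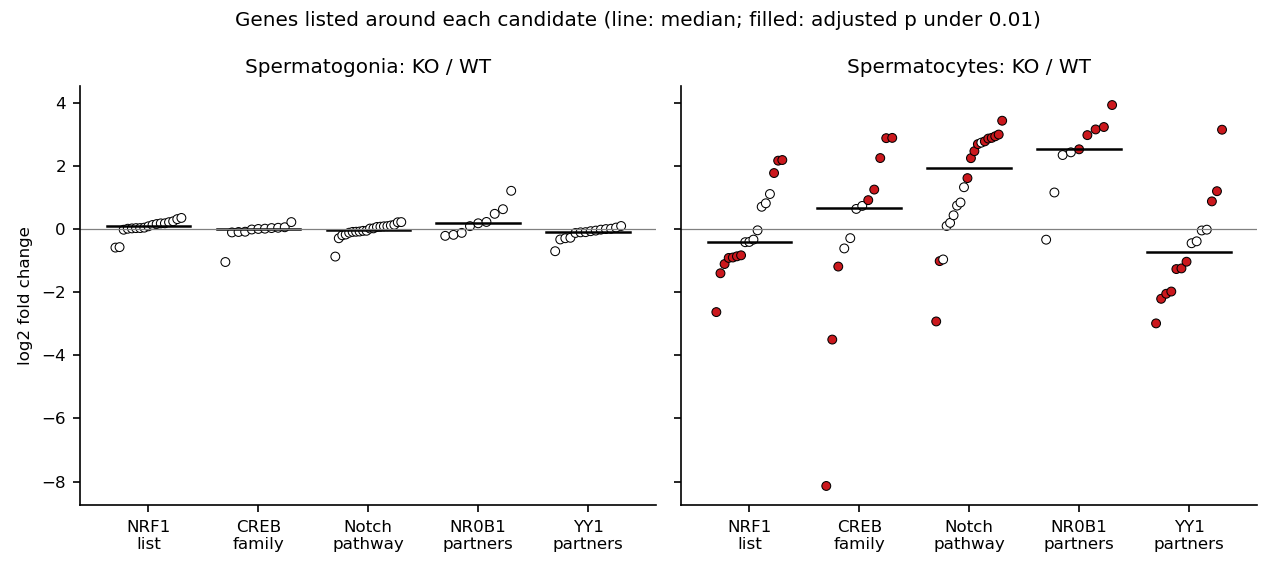
Log2 fold change of KO over WT (vertical axis) for each gene listed around a candidate, in Spg (left) and Spc (right), with the list median as a line and filled points for an edgeR adjusted p under 0.01. In Spg the medians lie between -0.08 and 0.18 with no filled point, and in Spc between -0.74 (YY1) and 2.53 (NR0B1).

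Promoters were searched for the short sequences that these factors are known to bind, since the candidates moved with stage. The letters were GCGCATGC for NRF1, TGACGTCA and its short form TGACG for CREB, TGGGAA for RBPJ and GCCATNTT for YY1, on both strands, from 250 bases before to 50 bases after each start site (RefSeq, GRCm38.p6). No motif was searched for NR0B1. Among 32851 promoters the shares with a match were 2.71% for NRF1, 1.79% and 20.81% for the full and short CREB site, 25.56% for RBPJ and 6.05% for YY1. The short site lies within the full site and was counted there too. The 5 candidates had 7 promoter entries, and those of Nrf1 (2), Creb1, Nr0b1 and Yy1 held none of these letters. The 2 entries of Rbpj overlap and held its own motif at 2 places, -149 and -65 from the first start, of which the latter is the same site as the match at -205 from the second. Its second start was also the only candidate entry with the NRF1 motif, at -19. Yy2, the relative with the largest rise in KO Spc, had the NRF1 motif at -151 and short CREB sites at -108, -84 and 37. The 250 bases before both starts are shown for the NRF1 motif, in capitals, which lies on the opposite strand in Yy2. The Rbpj stretch is chr5:53590236-53590485 on the plus strand and the Yy2 stretch chrX:157568986-157569235 on the minus strand.
Rbpj: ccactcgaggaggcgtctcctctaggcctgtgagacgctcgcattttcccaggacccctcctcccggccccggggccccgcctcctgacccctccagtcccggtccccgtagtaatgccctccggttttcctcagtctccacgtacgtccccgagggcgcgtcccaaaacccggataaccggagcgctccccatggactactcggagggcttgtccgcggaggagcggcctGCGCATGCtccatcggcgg
Yy2: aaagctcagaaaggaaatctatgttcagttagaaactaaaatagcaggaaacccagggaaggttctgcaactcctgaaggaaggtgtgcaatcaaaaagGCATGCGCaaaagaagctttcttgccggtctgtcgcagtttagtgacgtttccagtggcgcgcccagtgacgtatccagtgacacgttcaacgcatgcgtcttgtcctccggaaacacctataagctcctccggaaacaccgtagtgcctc

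The 5′ ends of young L1 copies were searched in the same way wherever an annotated transcript of GENCODE M21 crossed the first 1500 bases of a copy longer than 5000 bases. This gave 54 stretches of L1Md_T (31452 bases, of 5058 such copies) and 22 of L1Md_A (11881 bases, of 3303 copies), which are not a random sample of copies. The YY1 motif was found in 16 of the L1Md_T stretches (23 matches) and in 3 of the L1Md_A stretches (5 matches). The RBPJ motif was found in 22 L1Md_T stretches (25 matches) and in 6 of L1Md_A (7 matches). The short CREB site was found in 1 and 2 stretches, and the letters searched for NRF1 and the full CREB site in none. These counts say only whether the exact letters stand in the windows searched, so finding none does not show that L1 has no site for a factor. The study reported NRF1 motifs enriched among the L1 targets of DNMT3C, and more NRF1 bound at L1 subfamilies in KO than in WT germ cells.

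All 21 L1Md_T windows around the YY1 motif and all 5 of L1Md_A with 10 bases on each side had it on the strand of the L1. In 6 L1Md_T copies it occurred a second time, and in 5 of these the 2 matches were 212 bases apart, the period of the monomer repeat. Windows are shown for the commonest L1Md_T sequence at 1 of its copies, for a copy with the 2 matches and the highest mean in KO Spc, and for 1 copy of L1Md_A, with the YY1 motif in capitals. The first is chr6:78395819-78395846 on the plus strand, the second and the third are chr15:35589995-35590022 and chr15:35589783-35589810 on the minus strand, and the L1Md_A window is chr10:71565651-71565678 on the minus strand (GRCm38).
L1Md_T, chromosome 6: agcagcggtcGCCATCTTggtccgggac
L1Md_T, chromosome 15, first match: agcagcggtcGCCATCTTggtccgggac
L1Md_T, chromosome 15, second match: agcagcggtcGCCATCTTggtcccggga
L1Md_A, chromosome 10: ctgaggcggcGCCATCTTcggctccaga

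The L1Md_T copy on chromosome 15, in the gene Gm7968, had mean TPM (a share of all transcripts, scaled by length) of 0.13 in WT Spg, 2.04 in KO Spg, 0.026 in WT Spc and 5.36 in KO Spc, in the deposited values per copy. The copy on chromosome 6 had 0, 1.24, 0.006 and 2.29 TPM in the same order, and the L1Md_A copy on chromosome 10 had 0, 0.021, 0.019 and 0.149 TPM. The RBPJ motif of L1Md_T stood most often in 1 context, in 9 of the windows, shown here with the motif in capitals from chr5:86685954-86685979 on the plus strand.
L1Md_T, chromosome 5: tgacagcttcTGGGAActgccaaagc

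Inside the candidate genes themselves young L1 was sparse. Nrf1, Nr0b1 and Yy1 held no copy of the L1Md_T, L1Md_A, L1Md_Gf or L1Md_F families measured in both stages. Creb1 held 4 intronic copies and Rbpj 1, none longer than 5000 bases, and their means were at most 0.288 TPM in any group. The L1Md_A copy in Rbpj is 2015 bases long, at chr5:53627738-53629752 on the minus strand, and its means were 0.119 TPM in KO Spg, 0.0825 TPM in KO Spc and 0 TPM in both WT groups.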

How the data were processed

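RNA was measured in 14 libraries of sorted Dnmt3CKO/KO and wild-type germ cells by stranded polyA RNA-seq. The authors trimmed reads with cutadapt 4.0, aligned them to GRCm38 with STAR 2.7.3a keeping up to 100 alignments, counted genes and transposable element subfamilies by strand with TEtranscripts 2.2.3 in multi mode, and deposited these counts without normalisation, so reads shared among L1 copies were divided by an estimate. The deposited TPM values of single L1 copies came from TElocal 1.1.1, per the methods of the study, and are given as means without a test. The authors left out 1 Spg replicate for each genotype for low RNA quality. Columns of their own comparisons were not used.

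Features were kept by filterByExpr and scaled by TMM over genes and elements together. KO against WT was tested within each stage, and the interaction and stage differences in 1 fit of the 14 libraries, by the quasi-likelihood test of edgeR 4.0.16 (R 4.3.3) with Benjamini-Hochberg adjustment over all features and a threshold of 0.01. The SE is the fold change divided by the root of F. DESeq2 1.42.0, other scalings and filters, a replicate block, leaving out each library and adding Spc replicates 1 and 4 were tried as alternatives. The code was tested on simulated counts, in which most changes of 1 in log2 were not called in either stage. Intervals of counting error were not computed, since the spread between libraries was larger.

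Deviations from the group means of same-numbered KO and WT libraries correlated at 0.76, 0.19 and 0.30 in Spg, and at 0.06, 0.20, -0.03 and 0.12 in Spc, with differently numbered Spg libraries between -0.64 and 0.34. In Spg every same-numbered pair was above 0.1, but KO replicate 2 with WT replicate 3 reached 0.34, above the same-numbered 0.19 and 0.30. A pairing by number is therefore uncertain, and the main tests were not paired. The block on the replicate number was an alternative only, and it called 119 features in Spg against 16 in the main fit.

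The members, gene lists and marker lists were chosen with earlier results of these data known. Genes are named by rule, namely the members, their close relatives, the targeted gene, up to 3 called genes each way with the smallest p for each list in KO against WT (2 each way between WT stages, or the smallest p where none was called) and the 3 genes with the highest Pearson correlation to each member among genes with a mean of at least 5 CPM. The comparison of Nr0b1 with the Sertoli list, and the few other genes named to spell out small counts, were chosen after their values were seen. Promoter sequences are RefSeq entries of GRCm38.p6, and gene positions and L1 transcripts come from GENCODE M21, also on GRCm38. The values of 1 listed gene are not reported here.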

Additional observations from a re-analysis of the deposited data

Results flagged for a closer look

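In 3 cases 1 of the 4 WT Spc libraries stood far from the other 3, measured by its gap to the nearest library as a share of the range of the group. Yy1 was highest in replicate 2 (171.3 CPM against 131.1 to 134.0 CPM), a share of 0.926. L1Md_T was highest in replicate 3 (466.8 CPM against 211.9 to 254.8 CPM) with a share of 0.832, and L1Md_A in the same library (359.9 CPM against 149.4 to 180.6 CPM) with 0.852. In all, 14 groups of 4 libraries were checked, and among independent libraries chance alone gives such a gap in about 1 of 20. WT Spc replicates 1 and 4 were much alike and L1Md_T and L1Md_A stood out in the same library, so this rate does not hold as it stands here.

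The KO effect on L1Md_A was larger in Spc than in Spg by 2.38 in log2 (edgeR interaction, adjusted p = 0.0038), and this call was lost without KO Spg replicate 3 and after adding Spc replicates 1 and 4 (adjusted p = 0.0106 and 0.0159), with all KO libraries above all WT libraries in both stages. For the 5 candidates the same term did not pass the threshold.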

How the results depend on the processing

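Spermatocyte calls of the candidates depended on the processing. Of the 5 candidates, 2 were called between KO and WT Spc, but 4 with library totals, 1 without the filter on low counts, 1 with the replicate block, 0 after adding replicates 1 and 4, and 0 to 3 without 1 library (3 without WT replicate 3). Over all features the main fit called 13124 of 22848, library totals 13280 of 22848 and the fit without the filter 14638 of 37986. The block called 11629 of 22848, adding replicates 1 and 4 gave 8874 of 23213, and leaving out WT replicate 3 gave 14396 of 23798. The interaction called 0, but 2 at an adjusted p under 0.05, 1 with library totals and 0 to 1 without 1 library. Of 25318 features it called 6314, but 11350 at an adjusted p under 0.05 and 6030 with library totals. Between WT stages 3 candidates were called, but 5 at an adjusted p under 0.05, 2 after adding replicates 1 and 4 (Nrf1 lost) and 2 to 4 without 1 library. Over all features 13026 of 25318 were called there, but 16241 at an adjusted p under 0.05 and 11126 of 24706 after adding replicates 1 and 4. Counts of candidates in Spg and between KO stages were 0 in every alternative. Apart from the loss of Creb1 in Spc (adjusted p = 0.0155), the block changed no call of a candidate, and it could not be fitted to the stage comparisons.

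Library totals turned Yy1 to 0.261 in Spc, 0.406 in the interaction and -0.309 between WT stages, and L1Md_T and L1Md_A to -0.201 and -0.325 between WT stages, as they moved the median of all genes from 0.11 to 0.79, 0.20 to 0.90 and 0.02 to -0.76. With TMM, leaving out a KO library moved that WT stage median from 0.02 to between -0.098 and -0.086, and leaving out the filter moved it to -0.129. The features tested changed too, and the cause was not tested. Some values in Spg changed sign: Rbpj was 0.017 with library totals, 0.000 without the filter, 0.002 with the block and -0.087 to 0.107 without 1 library (0.017, 0.003 and 0.107 without KO 1, KO 3 and WT 3). Creb1 ran from -0.118 to 0.078 (0.058 without KO 3), and Nr0b1 from -0.142, without KO 1, to 1.061. The spread between 3 or 4 libraries a group limits the precision of these values.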
